A study of Mus musculus with 6 samples.

Results

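The Hox genes measured on mouse spinal cord arrays were taken as every gene whose single annotated symbol begins with Hoxa, Hoxb, Hoxc or Hoxd followed by a number. The rule found 40 probe sets for 32 symbols, out of 12422 probe sets on the array that name 8251 genes. Of these symbols, 31 are protein-coding Hox genes and 1, Hoxa11os, is an RNA transcribed antisense to Hoxa11. The HoxA cluster gave 11 symbols, HoxB 9, HoxC 5 and HoxD 7. Other Hox genes were not analysed here, and 3 probe sets that each name 2 Hox genes, 1 for Hoxb7 and Hoxb8 and 2 for Hoxd3 and Hoxd4, were left out of the comparisons.

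Spinal cord was profiled at 75 and 110 days of age in nontransgenic mice (strain label B6SJL), in WT-SOD1 mice carrying wild-type SOD1, and in G93A-SOD1 mice carrying the G93A form. The strain label of the G93A-SOD1 mice reads B6SJL-G93A-SOD1 at 75 days and B6SJL-G93A-SOD1H at 110 days. That of the WT-SOD1 mice names B6SJL at 75 days and is absent at 110 days. Every genotype and age is 1 array, made from 4 pooled spinal cords and hybridised once, so no group has a replicate. The submitters describe the G93A-SOD1 mice as presymptomatic at the younger age and as partly paralysed at the older, and the other genotypes as well at both. Nontransgenic and WT-SOD1 arrays are called disease-free here. The promoters that drive the transgenes and the level of the cord that was dissected are not given in the sources used here. As a check of the labels, Sod1 measured 1037 and 1498 in nontransgenic cord at 75 and 110 days and 1583 to 1906 in the 4 transgenic pools.

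Hox genes encode homeodomain transcription factors and lie in 4 clusters. Their order along a cluster matches the order of their expression along the body axis, low paralogue numbers in the hindbrain and high ones at the tail end of the cord. In the embryonic cord they set the identity of motor neurons at each level: Hox5 genes take part in forming the phrenic motor column, Hox6 and Hox8 genes act at forelimb levels, Hox9 genes at thoracic levels, and Hox10 and Hox11 genes at hindlimb levels. Many stay expressed in the adult cord. In pooled whole cord, fewer cells of a type and less RNA per cell cannot be told apart.

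The deposited value is a linear intensity. Genes entered the tests if 1 or more of the 6 arrays exceeded 79.7, the median of all values, and values under the 25th percentile, 31, were raised to this floor. By this filter 16 of the 32 symbols were tested, and the others were near background on all arrays. Hoxa10 and Hoxd12 lay under the floor on all 6. None of the 5 genes with paralogue numbers 1 to 3 was tested, against 11 of 14 with numbers 4 to 8 and 5 of 13 with numbers 9 to 13. The brightest untested value was 77.0, and levels of different probe sets cannot be ranked against each other. Where a gene had several probe sets, the one with the highest mean stands for it.

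**Figure D1:**
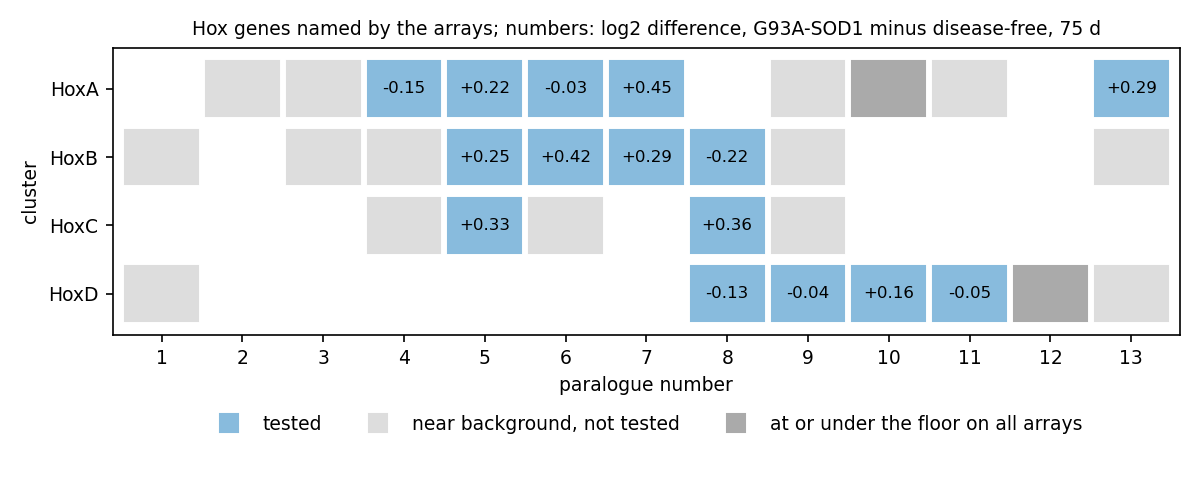
Protein-coding Hox genes by cluster (rows) and paralogue number (columns). Blue cells passed the filter and print the log2 difference of the G93A-SOD1 array from disease-free arrays at 75 days, light grey cells were near background, dark grey cells were under the floor on all 6 arrays, and white positions hold no gene named by a 1-symbol probe set. Tested genes are gathered at paralogue numbers 4 to 11, with Hoxa13 beyond, and the values run from -0.22 for Hoxb8 to 0.45 for Hoxa7.

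Promoters of 4 members are shown because the genes take different courses over the arrays, described in what follows. Hoxa7 and Hoxd10 read highest on the G93A-SOD1 array at 75 days. Hoxa5 and Hoxd8 read highest on the nontransgenic array at 110 days, Hoxd8 by the probe set with its highest mean only. Each is the 250 bases before the RefSeq start of the gene (GRCm38.p6), 5′ to 3′ on the strand of the gene. Capitals mark matches on either strand to TGATTNAT (a composite site of Pbx and Hox proteins), AGGTCA (a half-site of nuclear receptors such as those for retinoic acid), TATAAA or CCAAT.
Hoxa7, chr6:52218574-52218823, minus strand: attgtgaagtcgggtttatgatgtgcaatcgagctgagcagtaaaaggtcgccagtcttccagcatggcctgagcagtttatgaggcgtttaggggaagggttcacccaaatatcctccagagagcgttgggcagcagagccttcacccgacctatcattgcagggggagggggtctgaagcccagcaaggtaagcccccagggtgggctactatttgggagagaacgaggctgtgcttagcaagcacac
Hoxd10, chr2:74691641-74691890, plus strand: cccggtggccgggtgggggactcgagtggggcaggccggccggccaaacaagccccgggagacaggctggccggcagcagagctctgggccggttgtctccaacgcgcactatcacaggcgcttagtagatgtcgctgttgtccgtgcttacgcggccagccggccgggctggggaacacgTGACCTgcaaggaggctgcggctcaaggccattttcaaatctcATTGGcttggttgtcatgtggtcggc
Hoxa5, chr6:52204588-52204837, minus strand: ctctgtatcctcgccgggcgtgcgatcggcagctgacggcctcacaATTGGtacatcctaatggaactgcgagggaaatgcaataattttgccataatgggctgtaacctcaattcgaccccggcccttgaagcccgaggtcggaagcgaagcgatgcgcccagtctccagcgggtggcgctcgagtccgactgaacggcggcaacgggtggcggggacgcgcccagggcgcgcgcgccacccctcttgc
Hoxd8, chr2:74704365-74704614, plus strand: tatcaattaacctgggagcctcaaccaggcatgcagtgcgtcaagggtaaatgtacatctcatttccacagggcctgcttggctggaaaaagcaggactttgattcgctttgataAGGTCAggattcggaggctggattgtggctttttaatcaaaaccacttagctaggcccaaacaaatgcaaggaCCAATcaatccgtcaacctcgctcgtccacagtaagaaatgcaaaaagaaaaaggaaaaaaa
The Hoxa7 window held none of the 4 motifs. Hoxd10 and Hoxd8 each held 1 AGGTCA and 1 CCAAT, and Hoxa5 held 1 CCAAT. Of 27025 promoters in the table, 2.99% held TGATTNAT, 13.8% AGGTCA, 13% TATAAA and 34.5% CCAAT. Of the 10 tested Hox symbols with an entry, 0 held TGATTNAT, 2 AGGTCA, 2 TATAAA and 6 CCAAT. Their median GC content was 64.4%, against 52% over all promoters, and their median number of CpG dinucleotides 16.5 against 6.

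No Hox gene passed the test in G93A-SOD1 cord at 75 days, before symptoms, and the 3 with the largest differences were Hoxa7, Hoxb6 and Hoxc8. Of the 11 tested genes with paralogue numbers 4 to 8, Hoxa7, Hoxb5, Hoxb6, Hoxb7, Hoxc5 and Hoxc8 were highest on that array, and Hoxa4, Hoxa5, Hoxa6, Hoxb8 and Hoxd8 were not. Over all probe sets tested, 20.9% were highest there. Hoxc5 passed the filter only through that array, so it had to be highest on it. Hoxa7, which helps pattern the thoracic axis, gave, at 75 days and then 110 days, 183 and 171 in nontransgenic, 175 and 170 in WT-SOD1 and 244 and 206 in G93A-SOD1 cord. The 4 disease-free values spanned 7.38%, and both G93A-SOD1 arrays lay above all of them, the younger one farther. At 75 days the log2 difference was 0.45 ± 0.13 SE (adjusted p = 0.460, limma), the largest of the tested Hox genes.

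Hoxb6 took the same course. It gave, at 75 days and then 110 days, 298 and 293 in nontransgenic, 304 and 291 in WT-SOD1 and 401 and 328 in G93A-SOD1 cord. Its disease-free values were the tightest of the tested Hox genes, spanning 4.32%, and both G93A-SOD1 arrays stood apart from them. The log2 difference at 75 days was 0.42 ± 0.13 SE (adjusted p = 0.493, limma).

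Hoxc8, which in the embryo directs the forelimb motor pools, was the third. It gave, at 75 days and then 110 days, 154 and 127 in nontransgenic, 160 and 147 in WT-SOD1 and 202 and 165 in G93A-SOD1 cord. Disease-free values were more spread, by 26.5%, with the nontransgenic 110-day array lowest, and both G93A-SOD1 arrays again lay above them. At 75 days the difference was 0.36 ± 0.15 SE on the log2 scale (adjusted p = 0.499, limma).

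Hoxb7 and Hoxb5 were highest on the younger G93A-SOD1 array only. Hoxb7 gave, at 75 days and then 110 days, 177 and 189 in nontransgenic, 189 and 181 in WT-SOD1 and 223 and 190 in G93A-SOD1 cord. Its 110-day G93A-SOD1 value exceeded the highest disease-free value by about 1 intensity unit and dropped below it when arrays were scaled to 1 median. Hoxb5 gave, at 75 days and then 110 days, 218 and 244 in nontransgenic, 248 and 208 in WT-SOD1 and 277 and 211 in G93A-SOD1 cord. The 110-day G93A-SOD1 value was thus inside the disease-free range, while the 75-day value was above it. Log2 differences at 75 days were 0.29 for Hoxb7 and 0.25 for Hoxb5.

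**Figure D2:**
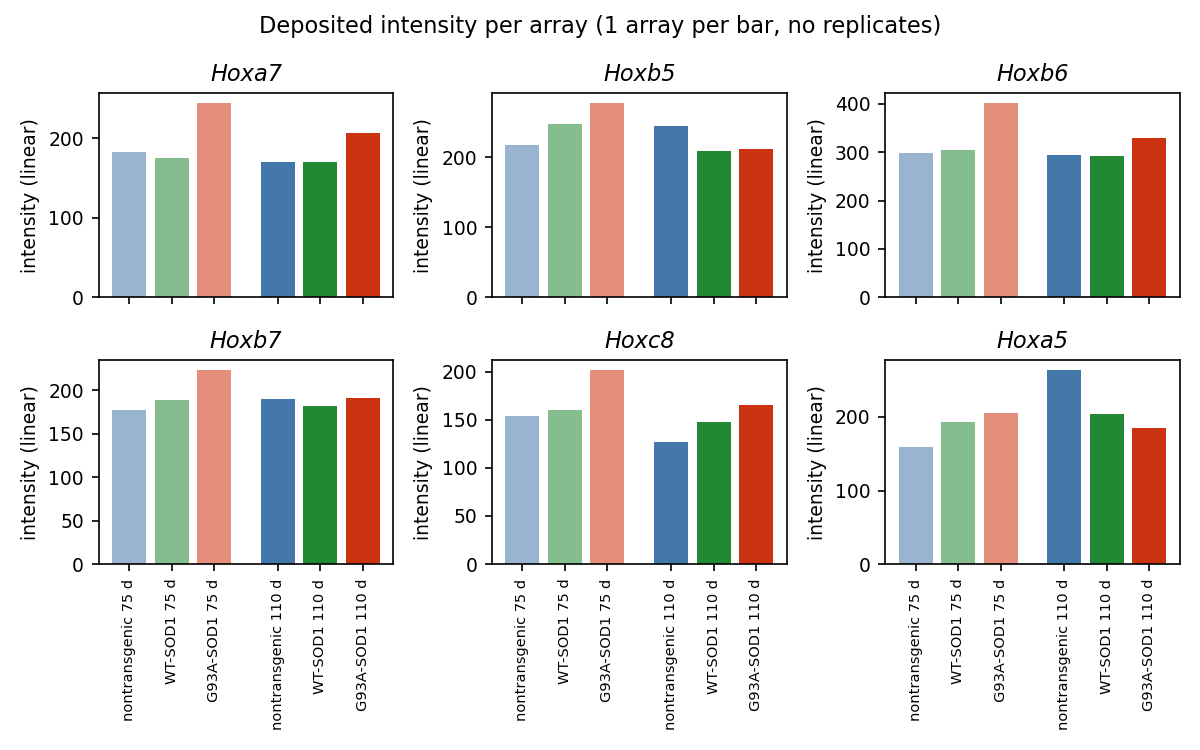
Deposited linear intensity on each of the 6 arrays for 6 Hox genes, with pale bars for 75 days, full bars for 110 days, and 1 array per bar. Hoxa7, Hoxb5, Hoxb6, Hoxb7 and Hoxc8 stand highest on the G93A-SOD1 array at 75 days, whereas Hoxa5 stands highest, at 264, on the nontransgenic array at 110 days.

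Over all tested Hox symbols, 0 of 16 passed the limma test at 75 days, as did 0% of the 6737 probe sets tested, and the smallest adjusted p was 0.460. At an unadjusted p under 0.05 there were 3 higher, Hoxa7, Hoxb6 and Hoxc8, against 3.34% of all probe sets, and 0 lower, against 6.52%. The median log2 difference of the 16 was 0.19, beside -0.037 over all probe sets tested, and 9 were above 0, against 42.5%. With the nontransgenic 75-day pool left out this median was 0.13, and over all 32 symbols with no filter it was -0.0062. By position alone, a count chosen after the values were seen, the 75-day G93A-SOD1 array read above all 4 disease-free arrays for 8 of 16 symbols, against 23.9% of all probe sets, and below them for 2, against 34.7%. Hoxa13 and Hoxc5 passed the filter only through this array, so they had to be high there. Of the 11 genes above 79.7 on all 6 arrays 6 were above the disease-free range, where the background was 22.8%, and 2 were below it, against 35%. The highest of the 6 arrays was this one for 8 of 16 symbols, against 20.9% of all probe sets. It was the nontransgenic array at 75 days for 4 (10.7%) and at 110 days for 2 (30.1%), and the WT-SOD1 array at 75 days for 1 (11.9%) and at 110 days for 1 (12.7%).

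Hoxc5 and Hoxa13 were the members that rested on this array. Hoxc5, which acts with Hoxa5 in phrenic motor neurons, read 88.9 on the 75-day G93A-SOD1 array and 65.2 to 75.3 on the other 5. Hoxa13, a gene of limb ends and the hindgut, read 83.8 there and 59.1 to 70.3 elsewhere. Among genes near background, Hoxc6, which acts at forelimb levels, gave, at 75 days and then 110 days, 54.4 and 57.4 in nontransgenic, 56.0 and 58.0 in WT-SOD1 and 77.0 and 65.8 in G93A-SOD1 cord. It kept the order seen for Hoxa7 and Hoxb6, below the level that was tested. Hoxc6 was chosen after its values were seen. Of the 16 untested symbols 3, Hoxb1, Hoxb4 and Hoxc6, exceeded the disease-free range at 75 days, against 34.7% of the 5685 untested probe sets, and 4 lay below it, against 19.3%. Hoxb1 exceeded it by less than 1 unit.

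Different probe sets of 1 gene disagreed for Hoxa4 and Hoxb8, both represented by probe sets whose ending, _r_at, marks possible cross-hybridisation. Hoxb8, needed for dorsal cord development, gave, at 75 days and then 110 days, 347 and 328 in nontransgenic, 365 and 335 in WT-SOD1 and 306 and 348 in G93A-SOD1 cord, so that its 75-day G93A-SOD1 value was the lowest. Its other probe set, ending in _s_at and under the filter, was highest there, at 39.5 against 26.7 to 30.0 on the disease-free arrays. Hoxa4 gave, at 75 days and then 110 days, 529 and 430 in nontransgenic, 482 and 472 in WT-SOD1 and 455 and 514 in G93A-SOD1 cord, all inside the disease-free range. A second Hoxa4 probe set without such an ending read 184 on the 75-day G93A-SOD1 array, above 155 to 171 on the disease-free arrays. With representatives chosen only among probe sets without these endings, the tested median at 75 days was 0.25. Hoxa6 and Hoxa11os were also represented by such probe sets, and by these neither stood outside the disease-free range at either age. Their dimmer probe sets, under the filter, did on the 75-day G93A-SOD1 array. That of Hoxa6 read 42.9, above 33.5 to 42.2 on the disease-free arrays, and that of Hoxa11os 30.3, under the floor and below 32.6 to 33.5.

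Of the 4 tested HoxD genes 1, Hoxd10, read above the disease-free range at 75 days, and a contrast with the other clusters was not tested. Hoxd8 gave, at 75 days and then 110 days, 277 and 333 in nontransgenic, 297 and 267 in WT-SOD1 and 261 and 290 in G93A-SOD1 cord. It was thus lowest where Hoxa7 was highest, and its second tested probe set read 151 there, inside the disease-free range of 148 to 163. The second probe set was highest, at 164, on the 110-day G93A-SOD1 array. Hoxd9, a gene of lumbar levels, gave, at 75 days and then 110 days, 109 and 90.2 in nontransgenic, 101 and 103 in WT-SOD1 and 102 and 85.3 in G93A-SOD1 cord. Hoxd10, which acts in hindlimb motor neurons, gave, at 75 days and then 110 days, 99.7 and 90.3 in nontransgenic, 100.2 and 102 in WT-SOD1 and 112 and 88.9 in G93A-SOD1 cord. Both were lowest on the 110-day G93A-SOD1 array, next to the nontransgenic 110-day array. Their probe sets are annotated with the same sequence record, so how far they measure separate genes is not known. Hoxd11 gave 70.0 to 88.9 in disease-free cord, 82.3 in G93A-SOD1 cord at 75 days and 76.7 at 110 days, all in 1 range. Over the genes above 79.7 on all 6 arrays, the median log2 difference at 75 days was 0.22 for 3 HoxA, 0.27 for 4 HoxB and -0.036 for 3 HoxD genes, with Hoxc8 the 1 HoxC gene.

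**Figure D3:**
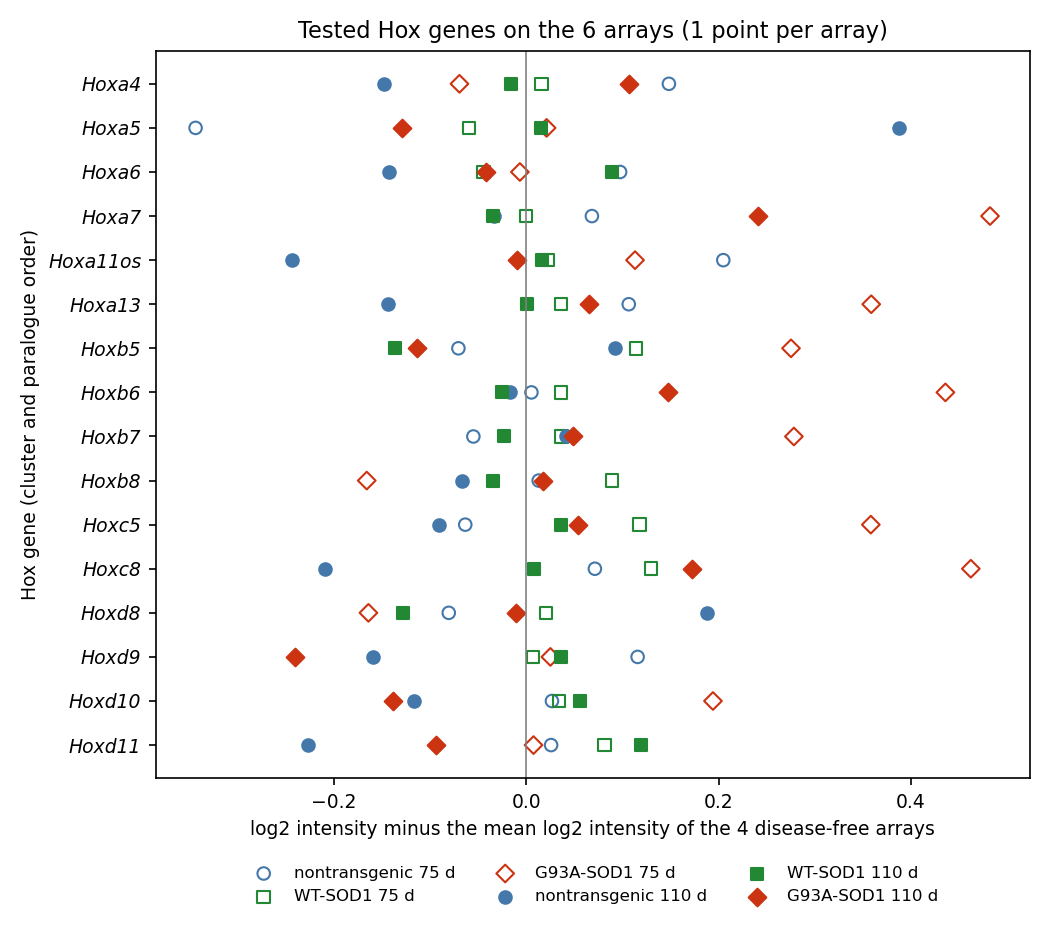
Log2 intensity of each tested Hox symbol on the 6 arrays relative to the mean of its 4 disease-free arrays, with circles for nontransgenic, squares for WT-SOD1 and diamonds for G93A-SOD1, open at 75 and filled at 110 days. Open diamonds stand to the right of every other point for 8 symbols, and Hoxa5 shows the widest spread among disease-free arrays, from -0.34 to 0.39.

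At 110 days, with the mice partly paralysed, the median Hox difference lay nearer 0 and 0 of 16 symbols passed the limma test, against 1.51% of all probe sets. None had an unadjusted p under 0.05, against 4.68% higher and 5.61% lower over all probe sets, and the smallest adjusted p was 0.556. Hoxa7 stood at 0.28 ± 0.13 SE, Hoxc8 at 0.27 ± 0.15 SE and Hoxa5 at -0.33 ± 0.20 SE, the 3 farthest from 0. The 16 log2 differences had a median of 0.054, beside -0.021 over all probe sets, with 9 above 0 (44.9% of all probe sets), and without the WT-SOD1 110-day array the median was 0.12. The 110-day array read above all disease-free arrays for 4 of 16 symbols, Hoxa7, Hoxb6, Hoxb7 and Hoxc8, against 16.9% of all probe sets, and below them for Hoxd9 and Hoxd10, against 27%. For those 4 both G93A-SOD1 arrays lay above the disease-free range, as did 6.25% of probe sets. Among the 11 genes above 79.7 throughout, 4 were above the range at 110 days (16.2%), 4 at both ages (5.67%) and 2 below it at 110 days (27.7%). The 75-day G93A-SOD1 array exceeded the 110-day one for 13 of 16 symbols, against 49.1% of all probe sets. Hoxa13 and Hoxc5, which passed the filter only through the 75-day array, had to be among the 13. Of the 11 genes above 79.7 throughout, 8 were higher on the 75-day array, and the share of all such probe sets was not counted.

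The change of the G93A-SOD1 difference between ages was tested directly and 0 of 16 symbols passed, against 0.416% of all probe sets, with 0 at an unadjusted p under 0.05 in either direction, against 4.19% higher and 2.05% lower, and 6 above 0, against 50.8%. Hoxb5, among the genes high at 75 days, stood farthest from 0, at -0.35 ± 0.23 SE (adjusted p = 0.983, limma). Hoxa4 stood at 0.34, but at -0.10 by its probe set without a cross-hybridisation ending. Hoxa5, at -0.55 ± 0.28 SE (adjusted p = 0.891, limma), was the farthest from 0 of all 16.

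**Figure D4:**
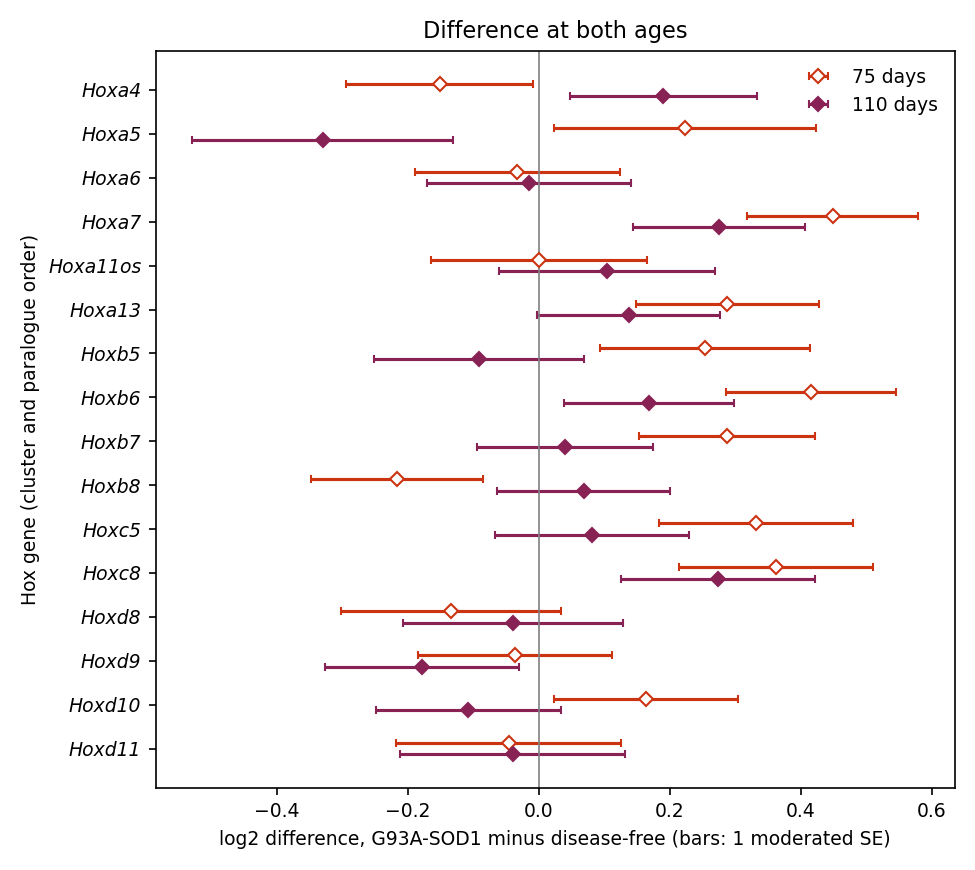
Log2 difference of the G93A-SOD1 array from the disease-free arrays of its age for the 16 tested Hox symbols, open diamonds at 75 days and filled diamonds at 110 days, with bars of 1 moderated SE. Differences at 75 days reach 0.45, those at 110 days 0.28, and Hoxa5 is the lowest at 110 days, at -0.33.

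Hoxa5, a gene of cervical levels needed for phrenic motor neurons, varied most among the disease-free arrays. It gave, at 75 days and then 110 days, 159 and 264 in nontransgenic, 194 and 204 in WT-SOD1 and 205 and 185 in G93A-SOD1 cord. The lowest and the highest array were both nontransgenic, and both G93A-SOD1 values lay between them. Disease-free cord at 110 days differed from 75 days by 0.40 ± 0.16 SE (adjusted p = 0.998, limma), the 1 Hox symbol with an unadjusted p under 0.05 for age, where 2.55% of all probe sets were higher and 0.549% lower. Leaving out either 110-day disease-free pool moved the difference, to 0.22 with the nontransgenic one gone and to 0.59 with the WT-SOD1 one gone. Its G93A-SOD1 difference at 110 days was -0.14 and -0.52 in the same cases.

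Age and the wild-type transgene left no Hox call. For age in disease-free cord 0 of 16 symbols passed the limma test, against 0.0148% of all probe sets, and the median was -0.065 beside -0.0036. Hoxa11os stood at -0.23 and Hoxc8 at -0.20, and 3 of 16 were above 0, against 48.8%. Of the 16, 7 were lowest on the nontransgenic 110-day array. How many of all probe sets were lowest there was not counted, so the 7 is no result about Hox genes. For WT-SOD1 against nontransgenic 0 of 16 passed, against 0.104%, and 0 had an unadjusted p under 0.05, against 0.282% higher and 0.891% lower. The median was 0.038 beside 0.0038, 11 were above 0, against 51.2%, and Hoxd11, Hoxc5 and Hoxc8 stood at 0.20, 0.15 and 0.14 with 0.19 SE each. Taking both G93A-SOD1 arrays as samples of 1 state with age as a term, 0 of 16 passed, as did 0% of all probe sets. The same genes led: Hoxa7 at 0.36 ± 0.092 SE (adjusted p = 0.191, limma), Hoxc8 at 0.32 ± 0.10 SE (adjusted p = 0.242, limma) and Hoxb6 at 0.29 ± 0.097 SE (adjusted p = 0.255, limma). These 3 had an unadjusted p under 0.05, against 4.16% higher over all probe sets, and 0 were lower, against 9.83%. The median of the 16 was 0.040 beside -0.026, and 10 were above 0, against 43%. Without the G93A-SOD1 110-day array it was 0.19.

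Partners and regulators of Hox genes gave 0 calls in G93A-SOD1 cord at either age. Of 6 measured TALE cofactors, homeodomain proteins that bind DNA with Hox proteins, 3 were tested. Pbx3 stood at -0.25 at 75 days and -0.64 at 110 days (adjusted p = 0.462, limma), and Pbx2 at -0.22 and -0.041. Pbx3 read 283 on the nontransgenic 110-day array and 164 to 200 on the other disease-free arrays, beside 152 and 146 in G93A-SOD1 cord. Of 18 Polycomb and trithorax genes, which keep Hox genes silent or active, 13 were tested, with medians of -0.016 and 0.035. Bmi1, a Polycomb subunit, stood at -0.40 and Cbx2, another, at 0.38 at 75 days, while Kmt2a, a trithorax methyltransferase, stood at -0.40 and Ezh1 at -0.22 at 110 days. Kmt2a also read highest on the nontransgenic 110-day array, at 312 against 230 to 249 on the other disease-free arrays, beside 229 and 210 in G93A-SOD1 cord. Of 13 retinoic acid genes 5 were tested, with medians of -0.12 and -0.11. Aldh1a1, which makes retinoic acid, stood at -0.31 and Stra6 at -0.15 at 75 days, and the receptor gene Rxra at -0.20 and Aldh1a1 at -0.14 at 110 days. None of 7 measured Cdx and other upstream patterning genes passed the filter.

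Markers of other regions and cells varied over the same arrays. Summed intensity of 11 tested cerebellar genes, a region that lacks Hox expression, was 5028 to 6981 on disease-free arrays, 4233 on the 75-day and 3775 on the 110-day G93A-SOD1 array. Below the disease-free range were 7 and 9 of 11, against 34.7% and 27% of all probe sets. Pvalb, at 2186 to 3034 over all arrays, is the largest part of this sum. Gabra6, typical of cerebellar granule cells, measured 290 at 75 days and 85.5 at 110 days in nontransgenic cord, 44.8 and 429 in WT-SOD1 cord, and values under the floor in G93A-SOD1 cord. The pools with 290 and 429 also had the highest bacterial spike-in signals, 631 and 834 on average, against 351 to 457 elsewhere. Against the 2 disease-free arrays with lower spike-in signals alone, the 75-day G93A-SOD1 array was above for 11 of 16 Hox symbols, where 33.8% of all probe sets were, and the 110-day array for 7, where 29.3% were. Hoxa13 and Hoxc5, which passed the filter only through the 75-day G93A-SOD1 array, had to be among the 11. A spike-in term marked the nontransgenic 75-day and WT-SOD1 110-day pools as high and did not use the measured signal. With this term in the fit, the 75-day differences were 0.47 for Hoxa7, 0.41 for Hoxb6 and 0.40 for Hoxc8, and the Hox median was 0.13. The part of the cerebellar genes in the Hox values was not tested.

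Markers of other tissues were measured on the same arrays, and their part in the Hox values was not tested. Of 14 measured skeletal muscle genes 6 were tested, summing to 3184 to 4217 in disease-free cord, to 3216 in G93A-SOD1 cord at 75 days and to 2912 at 110 days, with Myh1, Myh2 and Mb under the floor throughout. Most of that sum is Pvalb, which neurons also express and the cerebellar list also holds. Of the 6, Acta1 alone passed for WT-SOD1 against nontransgenic cord, at a log2 difference of 1.16 (adjusted p = 2.96e-06, limma). That fit gave every probe set the same SE of 0.19, so this p-value does not measure the spread of Acta1 itself. In the fit with 4 means the SE of Acta1 for age in disease-free cord was 0.51. Acta1 read 448 on the WT-SOD1 75-day array and 52.5 to 126 on the other disease-free arrays, and Myl1 147 and 54.4 to 80.1. Meningeal and fibroblast genes (8 of 13 tested) summed to 5264 to 5899, 5658 and 5257, and 2 of them, Igfbp2 and Fmod, rose at 110 days, by 1.68 and 1.02 on the log2 scale (adjusted p = 0.0085 and 0.0166, limma). Sensory ganglion genes (2 of 5 tested, with Scn10a and Isl1 under the floor) summed to 582 to 676, 586 and 565, and 3 Schwann cell genes to 810 to 937, 932 and 925. Single genes stood outside the disease-free range at 75 days: 4 of 8 meningeal genes above and 2 below, 2 of 3 Schwann cell genes above and 1 below, and 0 of 6 muscle genes above and 1 below. Of all probe sets 23.9% were above it and 34.7% below. Col1a2, a fibroblast collagen, read 611 on the 75-day G93A-SOD1 array against 360 to 436 in disease-free cord. That log2 difference of 0.55 was larger than that of any tested Hox gene, but its probe set ends in _r_at. Col1a1, by a probe set without such an ending, stood at 0.12. Sox10, also a gene of oligodendrocytes, stood at 0.32, and Ptgds makes up most of the meningeal sum. Forebrain and midbrain markers were near background apart from Penk, with Dlx2, Dlx5, Neurod6 and Tbr1 under the floor.

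Markers of cells of the cord itself gave calls at 110 days and 0 at 75 days. Of 9 tested microglia genes 7 rose at 110 days, and their sum went from 1668 to 1922 on disease-free arrays to 1910 at 75 and 6666 at 110 days in G93A-SOD1 cord. Of 7 astrocyte genes 2 rose, Fabp7 and Gfap, with sums of 8560 to 9833, 9387 and 13058. Of 9 neuronal genes 1 fell, Nefm, with sums of 7958 to 9436, 7144 and 6192, and 5 oligodendrocyte genes summed to 9843 to 11110, 9491 and 9443. Aif1, 1 of the 7 microglia genes, passed the filter only through the 110-day G93A-SOD1 array. The part of these markers in the Hox values was not tested.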

How the data were processed

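Biotin-labelled cRNA from poly(A) RNA was hybridised to oligonucleotide arrays, per the labels' protocols. The authors deposited 1 linear intensity per probe set and array. Probe summary and scaling are not given in the sources used here. Array medians lay between 77.7 and 80.9, so intensities were used unscaled. Of 12488 rows, 66 were control probe sets and were left out. Symbols came from the platform annotation. A single symbol was given for 10833 of 12422 probe sets, several for 396 and none for 1193, and 10817 matched a RefSeq gene by Entrez identifier.

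Floored log2 intensities of 6737 probe sets were fitted with limma 3.58.1 in R 4.3.3, with Benjamini-Hochberg adjustment at 0.05 over all of them. The fit had 4 means (disease-free and G93A-SOD1 at each age) and 2 residual degrees of freedom, which come from how far both disease-free genotypes differ at an age. The p-values thus measure the spread between pools of different genotype, and each single G93A-SOD1 pool is taken to have that spread. The comparison of WT-SOD1 and nontransgenic cord used an age term over 4 arrays (1 residual degree of freedom and 1 pooled spread), and that of G93A-SOD1 over both ages used all 6 (3 residual degrees). SE is the moderated standard error. The number of arrays limits the precision. The fits were tested on simulated data. Every Hox symbol found by the rule was counted, though not each was named. Values per array are given for those above the pooled median on all arrays. For the 3 farthest from 0 per comparison, at least the log2 difference is given. From other lists, calls or the 2 members farthest from 0 were named. Members and lists were chosen with earlier results of these data known. The promoters printed and the genes plotted by array were chosen after their values were seen.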

Additional observations from a re-analysis of the deposited data

Results flagged for a closer look

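A probe set annotated to both Hoxb8 and Hoxb7 was left out of the comparisons because it names 2 genes. It read 246 on the G93A-SOD1 array at 75 days and 202 on that at 110 days, both above the 155 to 192 of the disease-free arrays, in the same order as Hoxb7 and Hoxb6. The brighter of the probe sets naming Hoxd3 and Hoxd4, also left out, took another course. On the G93A-SOD1 array it read 127 at 75 days, inside the 117 to 142 of the disease-free arrays, and 107 at 110 days, below them. The dimmer was under the floor on every array.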

How the results depend on the processing

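No Hox symbol passed under any of the 93 alternative fits with a test, in any of the 6 comparisons. A second Hoxb8 probe set, not the representative, passed with no filter at 75 days (log2 difference 0.35, adjusted p = 0.0169, limma) and for the change with age (-0.32, adjusted p = 0.0173, limma), where its disease-free values all sat at the floor and so had no spread. Over all probe sets, calls ranged from 42 to 591 at 110 days (102 in the fit reported) and from 0 to 185 at 75 days (0).

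Hox medians were less stable. At 75 days the median of 0.19 was -0.0062 with no filter, 0.13 with a spike-in term, 0.12 with WT-SOD1 controls only, 0.25 without cross-hybridising probe sets, and 0.13 to 0.21 leaving out 1 array. At 110 days it was -0.017 with WT-SOD1 controls only and 0.037 to 0.12 leaving out 1 array. The median change with age was 0 with no filter, -0.079 with nontransgenic controls only and -0.21 to -0.071 leaving out 1 array. For age it was -0.12 with nontransgenic arrays only and -0.13 to -0.057 leaving out 1 array, for WT-SOD1 0.043 to 0.13, and over both ages 0.017 to 0.19. The top of this last range repeats the 75-day comparison. The cause was not tested. Hoxa4 reversed, to -0.10 for the change with age, without its cross-hybridising probe set. The count above the disease-free range at 110 days was 4 of 16 symbols, against 16.9% of all probe sets. Against only the 2 disease-free arrays with lower spike-in signals it was 7 of 16, where 29.3% of all probe sets were above. With no filter it was 8 of 32 symbols. These range counts and their alternatives were chosen after seeing the data.

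Comparisons against 1 control genotype pooled both ages or, for age and its change, gave values with no test. The spike-in term could not be fitted for WT-SOD1 against nontransgenic. No paired analysis was possible because each genotype and age has 1 array and the labels carry no replicate numbers. Signal near background kept 16 Hox symbols out of every test but the one with no filter.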

Other observations

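Transcription factors that mark cord neurons gave 0 calls by limma at either age, with 12 of 19 measured genes tested. At 75 days 8 of the 12 lay above all disease-free arrays, against 23.9% of all probe sets, and 1, Irx3, lay below them, against 34.7%. Tlx3, Foxp1 and Lhx3, 3 of these 8, passed the filter only through the 75-day G93A-SOD1 array, so they had to be high there. At 110 days 0 were above, against 16.9%, and 2 below, against 27%. The dorsal interneuron gene Pax2 stood at a log2 difference of 0.36 at 75 days (adjusted p = 0.508, limma), and Tlx3 at 0.33 (adjusted p = 0.499, limma). At 110 days Nkx2-2 and Gata2, the farthest from 0, stood at 0.17 and -0.17. Evx2, which neighbours the HoxD cluster, read 105 on the 75-day G93A-SOD1 array and 77.2 to 94.6 on the disease-free arrays. Evx2 was chosen after its values were seen.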
